A study of Mus musculus with 15 samples.

Results

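The 10 genes described here encode CC chemokines, small secreted proteins that attract leukocytes: Ccl2, Ccl7, Ccl8 and Ccl12, grouped as monocyte attractants, and Ccl3, Ccl4, Ccl5, Ccl6, Ccl9 and Ccl24. They were chosen by name from the 42454 genes of the deposited table, and all 10 were among the 8656 genes expressed highly enough to be tested. They were followed across 5 groups of macrophages from mouse ear skin, to see which of them differ with injury and with the kind of macrophage. Of the 10 genes, 6 were lower in interstitial macrophages of the punched ear than in those of the unpunched ear, and 7 were lower in macrophages recruited to nerves after the punch than in interstitial macrophages of the punched ear. Of all tested genes, 4.03% were lower in the first comparison and 4.34% in the second. No member was called higher in any comparison by this test, which is limma with 1 weight per group. The counts depended on the test: 1 pooled spread gave 1 member in each comparison, DESeq2 2 and 1, and edgeR 0 in both. Of all genes, 1 pooled spread called 0.208% and 0.254%, and DESeq2 0.497% and 1.64%.

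The study sorted CD11b-positive, CD64-positive macrophages that lacked lineage markers from mice of the genotype CX3CR1-creERT2/gfp R26-tdT/+, in which a green reporter marks cells with an active Cx3cr1 locus and tamoxifen switches on the red reporter in cells that express the inducible Cre at that time. All mice received tamoxifen, their left ears were punched 3 weeks after it, and the skin of both ears was collected at 10 days from the punch. The groups, of 3 libraries each, were recruited nerve-associated macrophages of the punched ear (recsNAM, gated GFP+/Tomato-), resident nerve-associated macrophages of the punched ear (injsNAM, GFP+/Tomato+), resident nerve-associated macrophages of the unpunched ear (sNAM, GFP+/Tomato+), interstitial macrophages of the punched ear (injIM, GFP-/Tomato-) and interstitial macrophages of the unpunched ear (IM, GFP-/Tomato-). Every group carried the same Cx3cr1 and Rosa26 alleles and received tamoxifen, so no group lacked them, and Cx3cr1 is itself a chemokine receptor gene. The unpunched ear belonged to the same animals as the punched ear. Groups were read from the sample titles. The reporter tags contradict titles and gates for injIM and sNAM, being alike within a treatment, and the genotype tag is spelled with Cxcr1 in place of CX3CR1. All 15 libraries came from 3 mice, and which library came from which mouse is not given in the sources used here, so the tests treat the 15 libraries as independent and p-values measure only the spread between these libraries.

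CC chemokines bind G protein-coupled receptors of the CCR family on leukocytes, and gradients of them guide cells out of the blood and through tissue. Ccl2, Ccl7 and, in mice, Ccl12 are ligands of Ccr2, the receptor by which classical monocytes leave the bone marrow and enter inflamed tissue. In skin wounds, macrophages are both a target and a source of these ligands. Transcription of many of them is induced by NF-kappaB, AP-1 and C/EBP factors, and their messenger RNAs are short-lived and subject to decay through AU-rich elements.

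Recovered reads numbered 20442263 to 23420175 in recsNAM, 16889283 to 19520105 in injsNAM, 5636251 to 18632984 in sNAM, 20397849 to 21931446 in injIM and 20619909 to 23794162 in IM. The sNAM and injsNAM libraries stood apart: 8581 to 12302 genes were detected in them, against 13794 to 16416 in the others, and their replicates spread so much more that each sNAM library carried a weight of 0.175 and each injsNAM library 0.311 in the fit, against 1.67 for recsNAM, 3.21 for injIM and 3.43 for IM. The 8 macrophage markers, among them Csf1r, Adgre1, Fcgr1 and the C1q genes, were detected in every group, with summed levels of 14913 to 17679.6 CPM, reads scaled to a common library total, in recsNAM, 12422 to 14855 in injsNAM, 10984 to 13978 in sNAM, 15317 to 15713 in injIM and 17661 to 18217 in IM. Values below are normalized counts, the deposited values, which are reads divided by 1 factor per library; differences are on the log2(normalized count + 100) scale, which understates changes of genes near or below 100. In bulk RNA from sorted cells, fewer cells expressing a ligand and less RNA per cell cannot be told apart.

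The 10 genes lie in 3 places in the mouse genome, and the split by role is also a split by position. In GENCODE M21 coordinates (mm10), the 4 attractants lie in 1 run of 81229 bases on the forward strand of chromosome 11: Ccl2 at chr11:82035571-82037453, Ccl7 at chr11:82045712-82047525, Ccl12 at chr11:82101845-82103400 and Ccl8 at chr11:82115185-82116799. Within that run lies Ccl11, the eotaxin gene, which was listed at 0 in all 9 recsNAM, injsNAM and sNAM libraries. Ccl5, Ccl9, Ccl6, Ccl3 and Ccl4 lie further along chromosome 11 in a run of 138906 bases that starts at 83525778 and ends at 83664683, with Ccl4 on the forward strand and the others on the reverse strand. Ccl24 lies alone on chromosome 5, at chr5:135569937-135573049 on the reverse strand. RefSeq draws Ccl4 from 83648624, across the start of Ccl3 on the opposite strand, and whether reads were counted by strand is not given in the sources used here, so reads of Ccl3 and Ccl4 in that stretch cannot be told apart.

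RefSeq promoter sequence (GRCm38.p6, the same build as mm10) was at hand for 5 of the 10 genes; Ccl2, Ccl7, Ccl4, Ccl5 and Ccl24 were not matched. The 4 printed here are those of Ccl12 and Ccl8, neighbouring attractants of which Ccl12 passed the test after the punch in interstitial macrophages and Ccl8 did not, and of Ccl3 and Ccl9, which lie in the other run and of which Ccl3 fell in 2 comparisons while Ccl9 passed the test in none. Each is the 250 bases before the transcription start, 5′ to 3′ on the gene's own strand, and capitals mark matches on either strand to TATAAA, to the AP-1 motif TGANTCA, to the C/EBP motif TTNNGNAA or to the kappaB motif.
Ccl12, chr11:82101595-82101844, forward strand: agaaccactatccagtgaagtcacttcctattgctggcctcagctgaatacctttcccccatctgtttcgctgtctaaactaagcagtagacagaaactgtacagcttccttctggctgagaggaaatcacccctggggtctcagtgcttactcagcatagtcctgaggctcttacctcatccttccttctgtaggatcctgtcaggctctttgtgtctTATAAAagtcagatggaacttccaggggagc
Ccl8, chr11:82114935-82115184, forward strand: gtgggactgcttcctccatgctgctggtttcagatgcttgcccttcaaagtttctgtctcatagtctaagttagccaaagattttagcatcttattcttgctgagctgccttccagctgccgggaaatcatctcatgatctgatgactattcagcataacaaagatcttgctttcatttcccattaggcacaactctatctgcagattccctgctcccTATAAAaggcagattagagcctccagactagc
Ccl3, chr11:83649379-83649628, reverse strand: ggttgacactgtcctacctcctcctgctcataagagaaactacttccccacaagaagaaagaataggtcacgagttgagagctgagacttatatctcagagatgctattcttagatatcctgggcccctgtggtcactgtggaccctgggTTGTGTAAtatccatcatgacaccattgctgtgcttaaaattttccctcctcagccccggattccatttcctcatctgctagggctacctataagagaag
Ccl9, chr11:83578637-83578886, reverse strand: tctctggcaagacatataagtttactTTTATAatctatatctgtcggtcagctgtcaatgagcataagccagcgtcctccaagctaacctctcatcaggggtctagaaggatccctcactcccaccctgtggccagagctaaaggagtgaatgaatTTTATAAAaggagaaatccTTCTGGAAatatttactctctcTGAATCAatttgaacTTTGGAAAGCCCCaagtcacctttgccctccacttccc
The search covered these bases and the 50 after the start. Ccl12 and Ccl8 shared 1 feature, TATAAA beginning 31 bases before the start in Ccl12 and 32 bases before it in Ccl8, and held none of the other motifs. Ccl3 held 1 C/EBP match, and Ccl6, which is not printed, held no match. Ccl9 held 1 kappaB match that overlaps 1 of its 2 C/EBP matches, 1 AP-1 match and 3 matches to TATAAA, of which 2 overlap each other and the nearest begins 92 bases before the start. Of 32851 RefSeq promoter windows of the same length, 13.6% held TATAAA, 7.81% the AP-1 motif, 40.7% the C/EBP motif and 8.46% the kappaB motif. The matches are a description of these letters and not of factor binding.

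Ccl2, the main ligand of Ccr2, was lower after the punch in interstitial macrophages, and lower still in the recruited nerve-associated macrophages. It had 3230, 3922 and 7009.9 normalized counts in recsNAM (replicates 1, 2 and 3), 9929, 16474 and 21515 in injsNAM, 20580.2, 30362 and 44041 in sNAM, 21596, 16647 and 15758 in injIM, and 85744, 66142 and 76319 in IM. The 3 recsNAM libraries lay below all other 12, the 3 IM libraries lay above all other 12, and injsNAM, sNAM and injIM overlapped. Ccl2 was lower in injIM than in IM by 2.08 on the log2 scale (-2.08, SE 0.17, adjusted p = 4.65e-07, limma with Benjamini-Hochberg adjustment over all tested genes). It was lower again in recsNAM than in injIM (-1.97, SE 0.21, limma adjusted p = 9.12e-06). These comparisons share the injIM libraries.

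Ccl7, another Ccr2 ligand whose gene is the next one along from Ccl2, was distributed almost like it. Its normalized counts were 5355, 5670.3 and 10158 in recsNAM, 11944, 26938 and 38174 in injsNAM, 24831, 36597 and 52891 in sNAM, 20079, 19054 and 18732 in injIM, and 80551, 55795 and 60702 in IM. Again the recsNAM libraries lay below all others and the IM libraries above all others, while the 3 injIM libraries were close together, with a coefficient of variation of 3.64%. The log2 difference was -1.74 in injIM against IM (SE 0.17, limma adjusted p = 1.95e-06) and -1.50 in recsNAM against injIM (SE 0.20, limma adjusted p = 0.00012).

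**Figure D1:**
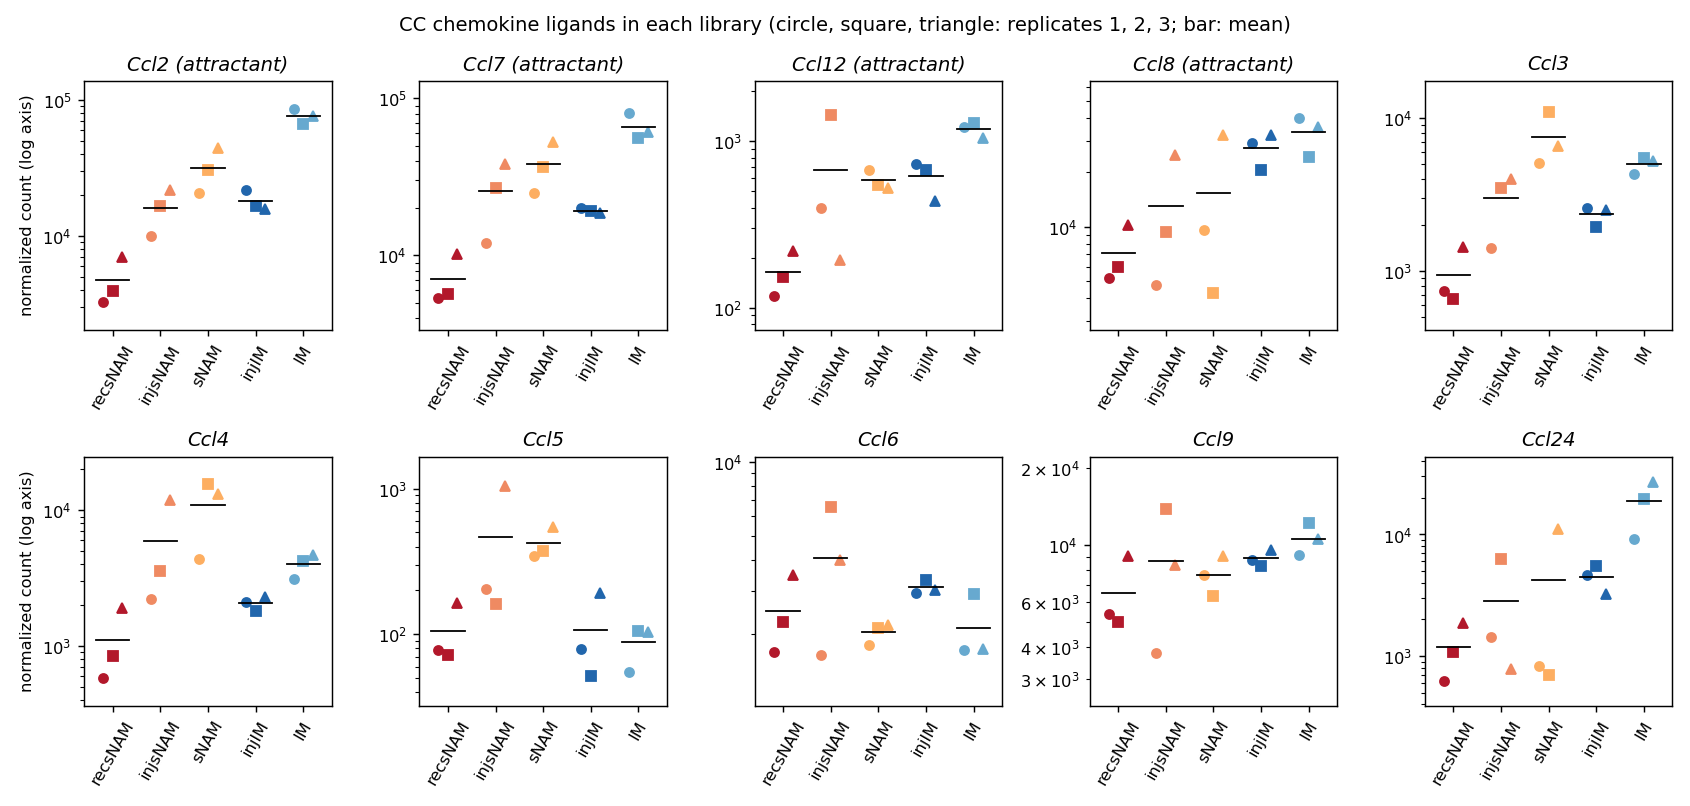
Normalized counts (log axis) of the 10 ligands in each library, 1 panel a gene, with groups from left to right recsNAM, injsNAM, sNAM, injIM and IM; circles, squares and triangles are replicates 1, 2 and 3 and the bar is the group mean. For Ccl2 and Ccl7 the 3 recsNAM libraries sit below all other 12 libraries, while for Ccl8 the injIM and IM libraries overlap.

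Ccl8, a ligand of Ccr8 in mice and of CCR2 in humans, was not called in injIM against IM and was lower in recsNAM. It had 5198, 5996 and 10228 normalized counts in recsNAM, 4744, 9311 and 25038 in injsNAM, 9591, 4256 and 32137 in sNAM, 29004, 20767 and 32456 in injIM, and 40329, 24275 and 36019 in IM. The injIM and IM libraries overlapped, the recsNAM libraries lay below all 6 interstitial libraries, and 1 library in each of sNAM and injsNAM (replicate 3 in both) was far above its group. Ccl8 differed by -0.28 between injIM and IM (SE 0.23, 95% interval -0.76 to 0.19, limma adjusted p = 0.554). It was lower in recsNAM than in injIM (-1.96, SE 0.28, limma adjusted p = 0.000181).

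Ccl12, a Ccr2 ligand of mice with no counterpart under that name in humans, was the attractant with the lowest level per kb of exon in every group. It had 118, 152 and 219 normalized counts in recsNAM, 397, 1441 and 194 in injsNAM, 672, 550.2 and 527 in sNAM, 734, 676 and 441 in injIM, and 1229, 1287 and 1042 in IM. The recsNAM libraries lay below those of sNAM, injIM and IM and overlapped injsNAM, in which replicate 2 had the highest value of all 15 libraries. The log2 difference was -0.86 in injIM against IM (SE 0.20, limma adjusted p = 0.0108) and -1.44 in recsNAM against injIM (SE 0.25, limma adjusted p = 0.00101). Without IM replicate 1 the first of these was -0.84, with a limma adjusted p of 0.0553.

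Ccl3 and Ccl4, the macrophage inflammatory proteins 1-alpha and 1-beta, ligands of which Ccl3 acts on Ccr1, had their highest group means in sNAM. Ccl3 had 736, 656 and 1442 normalized counts in recsNAM, 1424, 3508 and 4025 in injsNAM, 5079, 10977 and 6635 in sNAM, 2581, 1955 and 2507 in injIM, and 4298, 5460.2 and 5220.1 in IM. The recsNAM libraries lay below all 6 interstitial libraries, the injIM libraries below the IM libraries, and sNAM overlapped IM. The log2 difference of Ccl3 was -1.06 in injIM against IM (SE 0.18, limma adjusted p = 0.000617) and -1.29 in recsNAM against injIM (SE 0.22, limma adjusted p = 0.000732).

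Ccl4 had 582, 848 and 1892 normalized counts in recsNAM, 2226, 3571 and 11904 in injsNAM, 4347, 15518 and 13087 in sNAM, 2115, 1828 and 2296 in injIM, and 3109.6, 4240.0 and 4656 in IM. The injIM libraries lay below the IM libraries, and the highest recsNAM library reached above the lowest injIM library. Ccl4 fell in injIM against IM (-0.90, SE 0.23, limma adjusted p = 0.0188) and in recsNAM against injIM (-0.997, SE 0.28, limma adjusted p = 0.0362). Each of these calls was lost when any of 3 single libraries was left out: the first without IM replicate 3, injIM replicate 1 or injIM replicate 2 (adjusted p 0.0843 to 0.12), the second without injIM replicate 1, recsNAM replicate 1 or recsNAM replicate 2 (adjusted p 0.127 to 0.388).

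Ccl24, the eotaxin that attracts eosinophils through Ccr3, had the widest spread between groups after Ccl2, with 15.6 times as much in the highest group mean as in the lowest. It had 625, 1086 and 1884 normalized counts in recsNAM, 1435, 6244 and 789.6 in injsNAM, 829.5, 699 and 11144 in sNAM, 4684, 5512 and 3224 in injIM, and 9118, 19712 and 27249 in IM. The recsNAM libraries lay below the injIM libraries and these below the IM libraries, while sNAM and injsNAM each held 1 library far above the other two. Ccl24 was lower in injIM than in IM (-1.94, SE 0.37, limma adjusted p = 0.00338) and in recsNAM than in injIM (-1.90, SE 0.45, limma adjusted p = 0.0157). The second call was lost without injIM replicate 1, injIM replicate 2, recsNAM replicate 1 or recsNAM replicate 2 (adjusted p 0.0656 to 0.218).

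Ccl9 and Ccl6, ligands of Ccr1 that are known from rodents, had the smallest spread between group means. Ccl9 ranged over 5033 to 9110.5 normalized counts in recsNAM, 3780.2 to 13873 in injsNAM, 6326 to 9081 in sNAM, 8275 to 9628 in injIM and 9129.5 to 12200.5 in IM, and its highest group mean was 1.63 times its lowest. Ccl6 ranged over 1693 to 3477 in recsNAM, 1642 to 6543 in injsNAM, 1801 to 2189 in sNAM, 2945 to 3325 in injIM and 1720.3 to 2918 in IM. Neither passed the test in any comparison. Ccl6 was the 1 member whose injIM libraries all lay above its IM libraries (0.56, SE 0.20, limma adjusted p = 0.0900), and it passed without IM replicate 2 (0.80, adjusted p = 0.00499). Ccl9 in recsNAM against injIM was at -0.49 (SE 0.19, limma adjusted p = 0.152) and passed without recsNAM replicate 3 (-0.76, adjusted p = 0.00947).

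Ccl5, which acts on Ccr1 and Ccr3 and is abundant in T and NK cells, had its 2 highest group means in injsNAM and sNAM, with no difference that passed in limma. It had 77.9, 72.5 and 165 normalized counts in recsNAM, 205, 162 and 1034 in injsNAM, 343, 376 and 550 in sNAM, 78.8, 51.8 and 192 in injIM, and 54.9, 106 and 104 in IM. All 3 sNAM libraries lay above all IM libraries, while injsNAM overlapped recsNAM and injIM and held 1 library far above the rest. The log2 difference was 1.47 in sNAM against IM (SE 0.75, limma adjusted p = 0.374) and 1.17 in injsNAM against injIM (SE 0.57, limma adjusted p = 0.435). DESeq2 called both, with adjusted p = 0.0213 and 0.0493. In these comparisons DESeq2 called 14.6% and 9.04% of all genes it tested, against 1.05% and 0.485% in limma. T and NK cell markers moved in the same groups: the 8 markers summed to 1.91 to 10.2 CPM in recsNAM, 14.6 to 442 in injsNAM, 9.94 to 377 in sNAM, 1.62 to 3.47 in injIM and 3.49 to 5.76 in IM. Of the 3 that were tested, 1 (Cd3g) was called higher in injsNAM than in injIM. Gzma was at 0 in every library of all groups but recsNAM, and Trac in every library of all groups but injsNAM. Library by library the markers did not always follow Ccl5. In sNAM replicate 2, Cd3e was at 3.02 CPM and Cd3g and Nkg7 at 0, yet Ccl5 was above replicate 1, where Cd3e was at 70.4. On the other side, sNAM replicate 3 had the most Ccl5 and the most Cd3e of its group (107 CPM). Likewise, injsNAM replicate 2 had the least of both in its group (Cd3e 4.74 CPM). The other injsNAM libraries did not follow that order. Replicate 1 had the most Cd3e (174 CPM) with 205 normalized counts of Ccl5, and replicate 3 had less Cd3e (98.2 CPM) with 1034. The part of these markers in the Ccl5 values was not tested.

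Across the 10 genes, the interstitial macrophages of the punched ear gave 6 lower calls and no higher call against those of the unpunched ear. Among all 8656 tested genes 8.18% were called in that comparison, 4.15% higher and 4.03% lower, and the median difference was 0.03. The recruited nerve-associated macrophages gave 7 lower calls and no higher call against injIM, where 7.53% of all genes were called, 3.19% higher and 4.34% lower, with a median of -0.02. In the first comparison 708 genes were called in all, but 399 without IM replicate 3, 425 without IM replicate 1 and 428 without injIM replicate 1. In the second 652 were called, but 272 without recsNAM replicate 1 and 357 without injIM replicate 1. With 1 pooled spread for all groups Ccl2 alone passed in each comparison, with no filter on low values 2 members passed in injIM against IM, and edgeR on the recovered reads called no member in either, with Ccl2 at adjusted p = 0.0783 in injIM against IM and 0.0929 in recsNAM against injIM. Counted without a model of spread, 6 members had all injIM libraries below all IM libraries, where 11.4% of all tested genes did, and 1 (Ccl6) had all above, where 13.5% did. All recsNAM libraries lay below all injIM libraries for 6 members, as for 12.5% of all tested genes, and above for none, as for 11.4%.

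**Figure D2:**
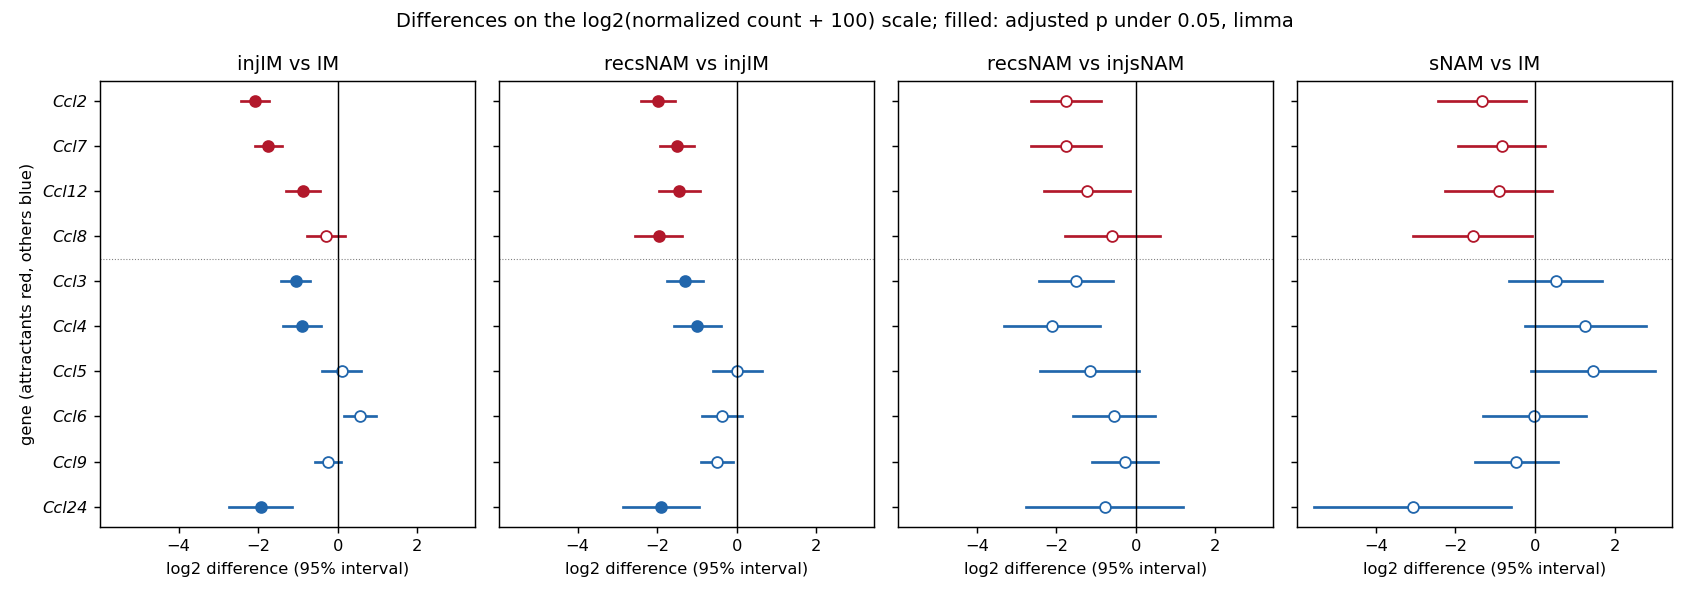
Log2 differences (log2 of normalized count + 100) of the 10 ligands with 95% intervals from limma in 4 comparisons; filled points passed the adjusted p of 0.05. The intervals of Ccl2 and Ccl7 exclude 0 in injIM against IM and in recsNAM against injIM, while those in the panel of sNAM against IM are wide.

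Comparisons that involve the resident nerve-associated libraries called no member in limma, and their intervals were wide. Between recsNAM and injsNAM, both from the punched ear, all 10 differences were negative in limma. Those of Ccl8, Ccl9 and Ccl24 each turned positive under 1 of 25 alternative settings, some of which leave a difference unchanged by design. Ccl4 had the largest at -2.11 (SE 0.58, limma adjusted p = 0.257), with Ccl7 at -1.76 and Ccl2 at -1.75 (limma adjusted p = 0.215 for both). All recsNAM libraries lay below all injsNAM libraries for 3 members, Ccl2, Ccl7 and Ccl4, as for 6.4% of all tested genes, and for no member did they lie above, as for 7.29% of all genes. No gene was called there (0%, with 619 at an unadjusted p under 0.05), so the members' count of 0 is that of all genes. Without recsNAM replicate 3, Ccl2 and Ccl7 passed with limma adjusted p = 0.0472. With all libraries, DESeq2 called 5 members lower (Ccl2, Ccl3, Ccl4, Ccl7 and Ccl12). It called 6.42% of the 15958 genes it tested there, 1025 in all, of which 184 were lower. Over all genes, 39 were called without injsNAM replicate 2 and 2 without recsNAM replicate 3.

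Between sNAM and IM of the unpunched ear, where 1.05% of genes were called and the median of all tested genes was -0.26, the members divided. Ccl24 was at -3.07 (SE 1.16, 95% interval -5.55 to -0.60, limma adjusted p = 0.223), Ccl8 at -1.57 (limma adjusted p = 0.310) and Ccl2 at -1.32 (limma adjusted p = 0.239). Ccl4 was at 1.26 (95% interval -0.26 to 2.79, limma adjusted p = 0.439) and Ccl3 at 0.52 (limma adjusted p = 0.714). All sNAM libraries lay below all IM libraries for Ccl2, Ccl7, Ccl12 and Ccl9, which held for 18.4% of all tested genes, and above for Ccl5, which held for 9.57%. The count of all called genes was 91, and it was 0 without sNAM replicate 1, 9 without sNAM replicate 3, 57 without IM replicate 3 and 58 without injsNAM replicate 3. With 1 pooled spread Ccl2 and Ccl24 passed, with adjusted p of 0.0227 and 0.0397, and 8.4% of all tested genes were called.

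Between injsNAM and sNAM, a comparison that addresses the punch within resident nerve-associated macrophages, no gene was called (0%, 586 at an unadjusted p under 0.05). Ccl3 was the member with all injsNAM libraries below all sNAM libraries (4.69% of all genes were so placed, and 7.35% the other way round). Its difference was -1.36 with an interval of -2.78 to 0.06. DESeq2 called Ccl3 lower (adjusted p = 0.0343), in a comparison where it called 13.6% of all genes it tested. Between injsNAM and injIM, where 0.485% of genes were called, no member passed in limma, and no member had libraries all above or all below (8.92% and 12.0% of all genes did). The 42 genes called there became 2, 6 or 74 without injsNAM replicate 3, 1 or 2, and 26, 20 or 75 without injIM replicate 1, 2 or 3. The most negative difference of a member was that of Ccl8, -1.37 (SE 0.55, limma adjusted p = 0.313). The difference between the punch effects of the nerve-associated and the interstitial macrophages was tested as an interaction, in which no gene passed (0%, 444 at an unadjusted p under 0.05). It was 1.09 for Ccl2 (95% interval -0.30 to 2.49), 1.09 for Ccl7 and 1.95 for Ccl24 (95% interval -1.16 to 5.07), each with limma adjusted p = 0.974, so these data do not show whether the fall of Ccl2 after the punch differs between the 2 kinds of macrophage.

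The attractants were set against the other 6 ligands by the median log2 difference of each set, as a description. In injIM against IM the median was -1.30 over the 4 attractants, with 3 called lower, and -0.57 over the others, with 3 of 6 called lower. In recsNAM against injIM it was -1.73 over the attractants, all 4 of which were called lower, and -0.74 over the others, with 3 of 6 called lower. In recsNAM against injsNAM the medians were -1.49 and -0.97. In sNAM against IM they were -1.12 and 0.25, the largest gap of the 6 comparisons at -1.37, in injsNAM against sNAM -0.41 and -0.10, and in injsNAM against injIM -0.22 and 0.20. The attractants' median was thus the lower in all 6 comparisons, but several of these share libraries, and when means replaced medians the gap moved to -0.27 in recsNAM against injsNAM and to -0.17 in injsNAM against sNAM. Single members crossed the split: in injIM against IM, the attractant Ccl8 was at -0.28 and Ccl24, of the others, at -1.94. By summed level per kb of exon, the attractants' share was alike in injIM (86.7%) and IM (86.9%).

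Per kb of exon, a unit used to set levels of different genes side by side, the same 3 genes led in every group. The length is that of all exons of a gene in GENCODE M21, which may differ from the annotation used for counting. The order rests on these lengths. Without division by length, Ccl9 (mean 6518 normalized counts) was above Ccl2 (4721) in recsNAM, and Ccl2 (76068) above Ccl7 (65682.5) in IM. In recsNAM, Ccl8 led with a mean of 13974 normalized counts per kb, ahead of Ccl7 with 8815 and Ccl2 with 4148. In injIM, Ccl8 also led with 53638, ahead of Ccl7 with 24080.2 and Ccl2 with 15818. In IM, Ccl7 led with 82001, and Ccl2 with 66844 and Ccl8 with 65639 followed. The next gene down was Ccl9 in recsNAM, with 2140.5 normalized counts per kb, and Ccl24 in IM, with 14435.

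**Figure D3:**
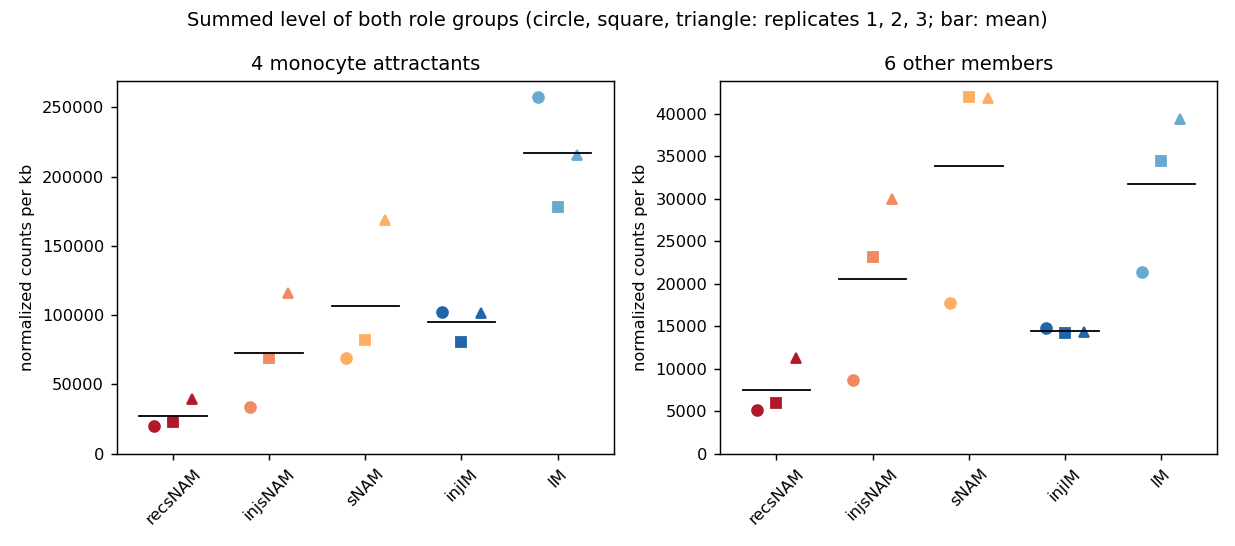
Summed normalized counts per kb of exon (linear axis) of the 4 attractants and of the other 6 ligands in each library, with groups from left to right recsNAM, injsNAM, sNAM, injIM and IM; symbols are replicates and the bar is the group mean. The attractant sum averages 27241 per kb in recsNAM, the lowest of the 5 groups, and 216691 in IM, the highest.

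The 4 attractants together took 78.8% ± 0.986 of the members' per-kb total in recsNAM, 77.9% ± 2.66 in injsNAM, 75.2% ± 7.98 in sNAM, 86.7% ± 1.47 in injIM and 86.9% ± 4.75 in IM (SD, n = 3 each). The highest of the 9 nerve-associated libraries was at 80.1% and the lowest of the 6 interstitial libraries at 83.7%, while libraries of punched and unpunched ears overlapped within each kind of macrophage. In total, the 10 genes took 0.189% ± 0.0669 of all reads in recsNAM, 0.483% ± 0.234 in injsNAM, 0.701% ± 0.304 in sNAM, 0.516% ± 0.0374 in injIM and 1.23% ± 0.116 in IM (SD, n = 3 each).

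Ratios between members within a library do not depend on the scaling of the library. Ccl7 over Ccl2 was 1.52 ± 0.121 in recsNAM, 1.54 ± 0.298 in injsNAM, 1.204 ± 0.00295 in sNAM, 1.09 ± 0.139 in injIM and 0.859 ± 0.0733 in IM (SD, n = 3 each). The recsNAM libraries lay above all 6 interstitial libraries, and injIM overlapped IM at 0.930 in its lowest library against 0.939 in the highest of IM. Ccl8 over Ccl2 was 1.53 ± 0.0750 in recsNAM, 0.736 ± 0.373 in injsNAM, 0.445 ± 0.295 in sNAM, 1.55 ± 0.444 in injIM and 0.436 ± 0.0601 in IM (SD, n = 3 each). Here recsNAM and injIM lay together above all libraries of the other 3 groups. Ccl4 over Ccl3 was 1.13 ± 0.295 in recsNAM, 1.85 ± 1.0004 in injsNAM, 1.41 ± 0.558 in sNAM, 0.890 ± 0.0620 in injIM and 0.797 ± 0.0861 in IM (SD, n = 3 each), with overlap between neighbouring groups.

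**Figure D4:**
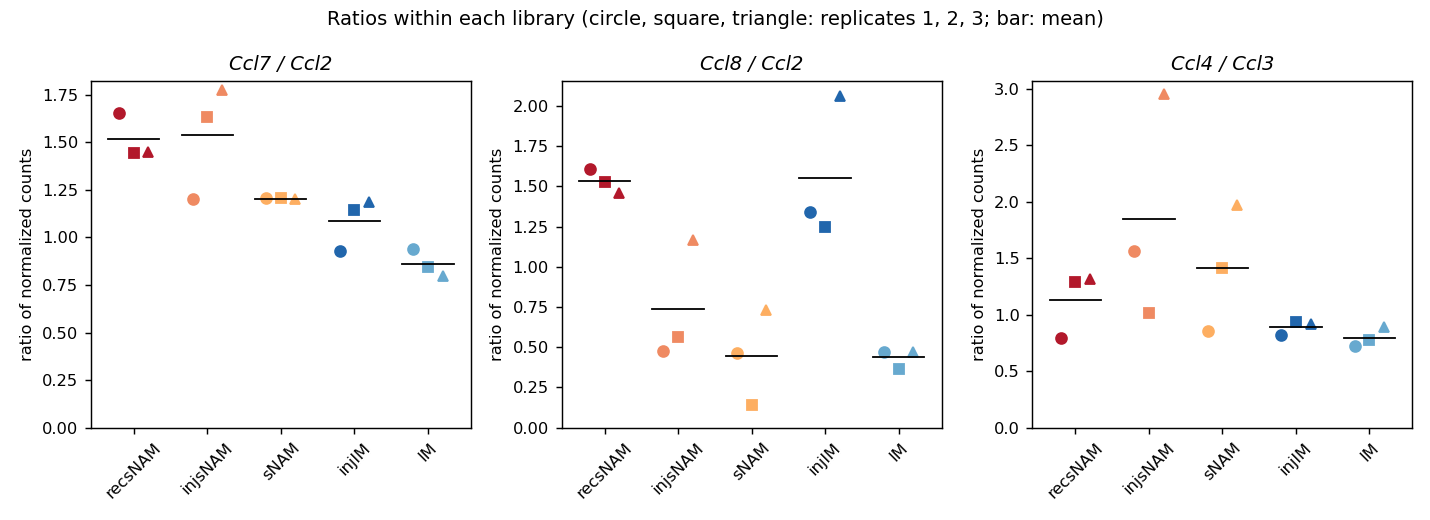
Ratio of normalized counts of Ccl7 to Ccl2, Ccl8 to Ccl2 and Ccl4 to Ccl3 in each library, with groups from left to right recsNAM, injsNAM, sNAM, injIM and IM; symbols are replicates and the bar is the group mean. Ccl8 over Ccl2 averages 1.53 in recsNAM and 1.55 in injIM, against 0.436 in IM.

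Of the 11 other CC ligand genes on the list, 2 were expressed highly enough to be tested, and Ccl19 and Ccl21a were listed at 0 in every library. Ccl22, a Ccr4 ligand typical of dendritic cells, had 588, 378 and 276 normalized counts in recsNAM, 348, 1823 and 1.71 in injsNAM, 6908, 1697 and 5009 in sNAM, 38.6, 17.0 and 69.1 in injIM, and 324, 57.0 and 200 in IM. It was higher in recsNAM than in injIM (1.83, SE 0.40, limma adjusted p = 0.00623), the opposite direction to the called members, a call that did not pass with 1 pooled spread (adjusted p = 0.839) or without recsNAM replicate 1 (1.597, adjusted p = 0.111). Ccl17, the other Ccr4 ligand, did not pass in that comparison (0.93, limma adjusted p = 0.106). The 7 dendritic cell markers, Ccl22 among them, summed to 52.4 to 103 CPM in recsNAM, 22.9 to 201 in injsNAM, 401 to 610 in sNAM, 26.4 to 37.7 in injIM and 54.3 to 69.8 in IM. Of the 6 that were tested, 2 (Flt3 and Ccl22) were called higher in recsNAM than in injIM. The part of these markers in the Ccl22 values was not tested.

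Of 14 CC chemokine receptor genes, 6 were tested. Against IM, injIM libraries had more Ccr1, a receptor of Ccl3, Ccl6 and Ccl9 (0.75, SE 0.11, limma adjusted p = 0.000204), and more Ccr3, the eotaxin receptor (0.91, SE 0.23, limma adjusted p = 0.0171). Ccr7, which guides cells to lymph nodes, was called lower (-0.86, limma adjusted p = 0.0484), a call that 17 of 25 alternative settings lost. Against injIM, recsNAM libraries had more Ccr1 (0.54, SE 0.13, limma adjusted p = 0.0165) and Ccr7 (4.01, SE 0.32, limma adjusted p = 6.09e-07). Ccr1 had 7308, 6674 and 7206 normalized counts in recsNAM, 4785, 4589.8 and 5108 in injIM, and 2873, 2635 and 2993 in IM. The order of these 3 groups was the reverse of that of Ccl2 with no overlap. That reversal did not hold across all groups. The injsNAM libraries, at 8028, 7913 and 12507, lay above recsNAM in Ccr1 and also in Ccl2. The sNAM libraries, at 3812, 8398 and 3253, overlapped injIM. With 1 pooled spread or edgeR, none of the Ccr1 and Ccr3 calls passed, and the Ccr3 call was also lost without IM replicate 1, injIM replicate 1 or injIM replicate 3 (adjusted p 0.0566 to 0.107). In recsNAM against injIM, the Ccr1 call was lost without injIM replicate 1, injIM replicate 2 or recsNAM replicate 1 (adjusted p 0.0571 to 0.154).

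The resident nerve-associated groups also had more Ccr7, which was called higher in sNAM than in IM (5.55, SE 0.82, limma adjusted p = 0.00494) and in injsNAM than in injIM (4.45, SE 0.63, limma adjusted p = 0.00411). The first call was lost without sNAM replicate 1 or 3 (adjusted p = 0.146 and 0.077) and the second without injsNAM replicate 1 (adjusted p = 0.0587). Ccr2, the receptor of Ccl2, Ccl7 and Ccl12, was not called in any comparison. Its normalized counts were 676, 1619.98 and 1118 in recsNAM, 1735, 793 and 1843 in injsNAM, 678, 0 and 1097 in sNAM, 827, 456 and 873 in injIM, and 345, 567 and 112 in IM.

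Of 12 genes that regulate chemokine transcription or messenger RNA decay, 11 were tested, and Tnf was listed at 0 in every library. The annotation used for counting is not given in the sources used here. Absence of RNA and loss of a gene in counting therefore cannot be told apart for Tnf, or for other genes listed at 0 in every library. In injIM against IM, 3 were called lower and none higher: Il1b, an inducer of these ligands (-1.31, SE 0.16, limma adjusted p = 2.72e-05), Nfkb1, which encodes the NF-kappaB subunit p50 and its precursor (-0.67, SE 0.14, limma adjusted p = 0.00506), and Zfp36, whose product binds AU-rich elements and promotes decay (-1.01, SE 0.13, limma adjusted p = 6.65e-05). In recsNAM against injIM, 2 were called higher and none lower: Il1b (1.69, SE 0.19, limma adjusted p = 2.91e-05) and Rel, another NF-kappaB subunit (0.73, SE 0.21, limma adjusted p = 0.0339). Il1b thus had 62958, 53017 and 70328.1 normalized counts in recsNAM, 19745, 17374 and 20335 in injIM, and 42814, 67824 and 36842 in IM. From injIM to recsNAM it differed in direction from Ccl2. High Il1b was not particular to the recruited cells. The injsNAM libraries, at 59825, 72912 and 51830, overlapped those of recsNAM. The sNAM libraries, at 150318, 203269 and 106870, lay above both. With 1 pooled spread the Nfkb1, Zfp36 and Rel calls did not pass (adjusted p 0.99994, 0.0791 and 0.424). They were also lost with edgeR, as was the Il1b call in injIM against IM (edgeR adjusted p 0.0783 and 0.108 under its 2 scalings). The Il1b call in recsNAM against injIM passed in all 25 alternative settings. The Rel call was also lost without injIM replicate 3, recsNAM replicate 1 or recsNAM replicate 2 (adjusted p 0.0549 to 0.352).

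Other gene lists also held called genes in these comparisons. Of 12 immediate-early genes, which are induced within minutes by stimulation and by tissue dissociation, 10 were tested. Among these, 6 were called lower in injIM than in IM, where 4.03% of all tested genes were. In recsNAM against injIM, 5 were called lower and 1 higher, where 4.34% and 3.19% of all tested genes were. The summed level of the list was 5155 to 7808 CPM in recsNAM, 6035 to 7383 in injIM and 8411 to 10764 in IM, so recsNAM and injIM overlapped. Hspa1a and Hspa1b were at 0 in every library. Of 9 mast cell markers, 7 were tested and 6 were called lower in injIM than in IM. The 9 summed to 249 to 268 CPM in injIM and 545 to 711 in IM, with none at 0 in all libraries of either group. Of 3 Langerhans cell markers, 2 were tested and 1 (Cd207) was called lower in injIM, with sums of 67.1 to 81.7 CPM in injIM and 108 to 135 in IM. Of 6 fibroblast markers, 5 were tested and 1 (Dcn) was called lower in recsNAM than in injIM, with sums of 44.3 to 263 CPM in recsNAM and 275 to 1046 in injIM. Their part in the differences of the ligands was not tested.

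Genes whose profile over the 15 libraries was most like that of 4 of the members were found by the root mean square difference of the centred log2 values, which is a description only. Nearest to Ccl2 were Cd81 (0.53), Cd300lb (0.65) and Nr4a1 (0.69), while the member Ccl7 was nearer than any of them (0.34). Cd81, a tetraspanin, averaged 1305 normalized counts in recsNAM, 2522 in injsNAM, 6464 in sNAM, 2616 in injIM and 9859 in IM, the same 2 extremes as Ccl2. Nearest to Ccl8 were Fxyd2 (0.39), Mt1 (0.40) and Cbr2 (0.40), all nearer than the closest member, Ccl9 (0.89). Nearest to Ccl3 were Rhoc (0.42), the neutrophil attractant Cxcl1 (0.53) and Il10 (0.53), about as near as Ccl7 (0.53). Nearest to Ccl24 were Mt2 (0.69), Cd209g (0.80) and Maged1 (0.87), nearer than its closest member, Ccl8 (1.17). Ccl8 and Ccl24 thus each had a metallothionein gene, Mt1 or Mt2, among their nearest genes.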

How the data were processed

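RNA-seq measured 15 libraries of sorted mouse ear skin macrophages (250 pg of RNA, 13 PCR cycles, SMARTer Ultra Low Input and Nextera XT, per the labels' protocols). The submitters' processing notes name bcl2fastq 2.18, cutadapt, STAR 2.7.2b, R 3.6.1, DESeq2 1.24.0 and mm10; the tool, annotation and strand of the counting step were not given in the sources used here. Each deposited signal value of a gene is a read count divided by 1 factor per library: 100% of values were whole multiples, within 0.01, of what 1 read is worth, and whole reads were recovered from them. PCR duplicates cannot be told from molecules.

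The test was limma 3.58.1 (trend, robust) in R 4.3.3 on log2(value + 100), for 8656 genes with a mean of 100 or more. It had 1 mean and 1 weight per group, Benjamini-Hochberg adjustment per comparison and a threshold of 0.05. It was run on simulated data that gave all genes of a group the same spread and drew libraries independently. Those data therefore do not check spread that differs between genes, or shared mice. Alternatives were no filter, pseudocounts of 10 and 1, 1 pooled spread, a replicate block, TMM scaling, the groups compared alone, edgeR 4.0.16, DESeq2 1.42.0 and leaving out each library. Named genes were the 10 members, the called genes of the ligand, receptor and regulator lists, and the 3 most alike genes of 4 members. One gene that this rule names is not reported here. The members and lists were chosen with earlier results of these data known. No 2 replicates agreed within sampling noise (chi-square per degree of freedom of at least 34.9).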

Additional observations from a re-analysis of the deposited data

How the results depend on the processing

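None of the 13 called member differences turned its direction under any alternative run, while 23 of all 70 member differences did so under at least 1, the largest of them 0.78 in size. Several runs could not turn a direction, because they leave the difference itself unchanged. These are no filter, a pooled spread, the replicate block, the groups compared alone, and leaving out a library of a group not compared. Of 1050 values of the 42 single-gene results followed, 888 kept their side of the threshold, 148 lost it and 14 gained it. The number of members called moved most with the model of spread. In injIM against IM, 6 were called, against 2 with no filter, 1 with a pooled spread, 0 with edgeR under either scaling and 2 with DESeq2, and 5 to 7 when 1 library was left out. In recsNAM against injIM, 7 were called, against 1 with a pooled spread, 0 with edgeR under either scaling, 1 with DESeq2 and 5 to 8 when 1 library was left out. In sNAM against IM, 0 were called, against 2 with a pooled spread and 2 with DESeq2 (Ccl2 lower, Ccl5 higher). Of all genes tested, a pooled spread called 8.4% there and DESeq2 14.6%. DESeq2 called 1 in injsNAM against sNAM (Ccl3, lower), where it called 13.6% of the 13776 genes it tested. It called 1 in injsNAM against injIM (Ccl5, higher), where it called 9.04% of 14638 genes. In recsNAM against injsNAM it called 5, all lower, where it called 6.42% of 15958 genes. Each of these stood against 0 in limma, and the last was 0 to 2 in limma when 1 library was left out. The cause of these shifts between settings was not tested. Over all genes, with no filter, with a pooled spread, with edgeR (TMM) and with DESeq2 in that order, injIM against IM gave 315, 18, 3 and 75 calls in place of 708, recsNAM against injIM 362, 22, 10 and 233 in place of 652 (1211 with the replicate block), sNAM against IM 120, 727, 367 and 1957 in place of 91 (0 with a pseudocount of 10), injsNAM against sNAM 4, 363, 111 and 1877 in place of 0, injsNAM against injIM 102, 69, 36 and 1324 in place of 42, recsNAM against injsNAM 12, 2, 0 and 1025 in place of 0, and the interaction 6, 4, 7 and 857 in place of 0. With 1 library left out, the counts ran from 399 to 827 in injIM against IM, 272 to 898 in recsNAM against injIM, 0 to 108 in sNAM against IM, 2 to 75 in injsNAM against injIM, 0 to 1 in injsNAM against sNAM, 0 to 39 in recsNAM against injsNAM and 0 in the interaction.

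The median of the attractants minus that of the other members, with 1 library left out, ranged from -0.85 to -0.50 in injIM against IM, -1.60 to -0.97 in sNAM against IM, -0.40 to -0.13 in injsNAM against sNAM, -0.68 to -0.31 in injsNAM against injIM, -1.05 to -0.91 in recsNAM against injIM and -0.58 to -0.43 in recsNAM against injsNAM, where means in place of medians gave -0.27 (-0.17 in injsNAM against sNAM). Same-numbered libraries of different groups correlated at -0.021 to 0.388, over 0.1 in 9 of 30 pairs. Libraries of different numbers were not set beside them, so whether the numbers pair the libraries was not settled. Over all genes the replicate block gave 928 calls in place of 708 in injIM against IM. In recsNAM against injIM it gave 1211 in place of 652. With the replicate block, 7 members were called in injIM against IM (Ccl6 joined, higher, adjusted p = 0.0378) and 8 in recsNAM against injIM (Ccl9 joined, adjusted p = 0.0431); the block changed no other member's call.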
